A study of Mus musculus with 6 samples.

Results

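The genes described here are 7 members of the kallikrein and plasminogen activator system, found by symbol among the 54446 genes of the deposited matrices. They are the kallikrein-related peptidases Klk8 and Klk6, the plasminogen activators Plau and Plat, the urokinase receptor Plaur and the serpins Serpine2 and Serpinf1. The members were selected on their measured levels and shares of cells in the contrast of GL261-GSCs with GL261, so their differences in that contrast are given as a description, with no test. The libraries were 10x Genomics 5′ single-cell gene expression libraries of mouse cells, with the tissue given as brain. The labels leave unclear whether whole cells or nuclei were loaded, and they name a detergent lysis step, so a cell here is a called barcode. GL261, an established mouse glioma line, was represented by 2 libraries of cells labelled glioblastoma cells and grown with FCS (fetal calf serum) in a differentiation medium. GL261-GSCs, glioblastoma stem cells that the study derived from that line, were represented by 4 libraries grown in a defined GSC medium. Culture type and medium cannot be told apart, and both groups come from 1 line. Nothing in the labels says whether the libraries of a group came from separate cultures, so p-values measure only the spread between these libraries, which may be technical.

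Plasminogen is a circulating zymogen that is cut to the protease plasmin by the urokinase-type activator (Plau) or the tissue-type activator (Plat), and the receptor Plaur holds urokinase at the cell surface. Serpins such as Serpine2 trap these proteases in irreversible complexes, which uptake receptors such as Lrp1 clear. Kallikrein-related peptidases are secreted serine proteases encoded in 1 tandem cluster. In brain, Klk8 (neuropsin) cleaves synaptic adhesion proteins and Klk6 (neurosin) is best known from oligodendrocytes, while invasion of glioma cells is a textbook setting for urokinase and its receptor.

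The libraries held 80899005 to 121309232 UMIs each (unique molecular identifiers, which count captured RNA molecules), of which 33320530 to 79472306 lay in called cells. Called cells numbered 9810 in GL261 and 21921 in GL261-GSCs, with median depths of 6670 to 15478 UMIs per cell, the lowest in GL261-GSCs replicate 4. Pairs of libraries shared 32 to 59 cell barcodes, and no library repeated another. The GL261-GSCs libraries fell into pairs, since chi-square per degree of freedom, over summed counts, was 77.1 between replicates 1 and 2 and 49.4 between replicates 3 and 4, against 163 to 240 for the other pairs. Of the 6 markers of the labelled stem cells, Olig2 was at 557 CPM (counts-per-million of UMIs, on TMM-scaled library sizes) in GL261-GSCs and 0.467 in GL261. In the same order, Sox2 was at 123 and 67.1 CPM, Nes at 427 and 1224 CPM, and Cd44 at 61.5 and 141 CPM. Prom1 had 8 and 3 UMIs over each group, and Gfap 3 and 165. Markers of other cell types were not all absent. The 6 macrophage and microglia markers summed to 9.21 to 23.2 CPM per library, nearly all of it Csf1r (12.8 CPM in GL261, 0.227 in GL261-GSCs) and Cd68 (7.45 and 16.1 CPM), with C1qa at 0 UMIs. The 5 neuron markers summed to 37.4 to 92.5 CPM, nearly all of it Tubb3 (88.6 and 19.8 CPM) and Syt1 (0.0240 and 35.8 CPM), with Rbfox3 at 0 UMIs. The 5 endothelial markers summed to 0.394 to 1.64 CPM, with Cldn5 at 0 UMIs.

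Sequences upstream of 4 members are shown because these members differed most between the groups, and because Klk8 and Klk6 lie in 1 gene cluster. They were taken from RefSeq on GRCm38.p6 and cover up to 250 bases before the gene start, written 5′ to 3′ on the gene's strand, without bases that GENCODE M21 annotates as untranslated region. Capitals mark matches, on either strand, to 3 of the 6 motifs searched, namely AP-1 (TGANTCA), the GC box (GGGCGG) and SOX (ACAAAG). The TEAD letters (GGAATG), the TATA box (TATAAA) and the CCAAT box (CCAAT) were not found in the printed stretches. Of 7 members, 5 had an entry. The Klk8 window lies at chr7:43797327-43797576, plus strand.
Klk8: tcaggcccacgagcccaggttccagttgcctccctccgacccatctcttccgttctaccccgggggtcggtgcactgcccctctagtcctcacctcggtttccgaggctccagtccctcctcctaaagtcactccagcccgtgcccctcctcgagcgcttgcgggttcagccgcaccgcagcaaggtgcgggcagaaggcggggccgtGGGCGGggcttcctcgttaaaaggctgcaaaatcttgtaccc
The Klk6 window, before the first of its 2 RefSeq starts, lies at chr7:43824294-43824498, plus strand.
Klk6: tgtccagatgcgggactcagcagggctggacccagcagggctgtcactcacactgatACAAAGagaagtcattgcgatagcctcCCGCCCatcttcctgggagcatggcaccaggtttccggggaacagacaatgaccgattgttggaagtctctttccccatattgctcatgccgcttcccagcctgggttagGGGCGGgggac
The Plaur window lies at chr7:24462233-24462482, plus strand.
Plaur: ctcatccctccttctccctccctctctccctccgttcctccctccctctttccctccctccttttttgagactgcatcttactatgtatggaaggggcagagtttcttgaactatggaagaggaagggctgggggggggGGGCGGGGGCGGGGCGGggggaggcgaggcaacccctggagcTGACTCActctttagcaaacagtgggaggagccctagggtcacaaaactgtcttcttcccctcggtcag
The Serpine2 window lies at chr1:79858697-79858915, minus strand, inside the longer gene model of GENCODE.
Serpine2: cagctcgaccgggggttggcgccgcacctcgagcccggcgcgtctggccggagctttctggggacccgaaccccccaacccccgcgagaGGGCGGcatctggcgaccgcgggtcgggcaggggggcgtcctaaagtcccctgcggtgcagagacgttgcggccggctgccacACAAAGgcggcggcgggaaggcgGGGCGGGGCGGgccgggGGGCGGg

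The AP-1 letters were found 69 bases before the Plaur start, and in no other member's window. They occur in 6.75% of the 32851 RefSeq promoter windows of the same length. A GC box lay 42 bases before the Klk8 start, and 32.7% of all windows hold at least 1. The first Klk6 window and those of Plaur and Serpine2 held 2, 3 and 6, of which 4 for Serpine2 lie in the printed stretch. The window of the second Klk6 start, not printed, held 1 GC box, and the TEAD letters 147 bases before that start. The 3 of Plaur form 1 stretch, in which the second and the third share 1 base. The SOX letters were found 193 bases before the first Klk6 start and 78 bases before the Serpine2 start, and occur in 16.5% of windows. The TEAD letters, the TATA box and the CCAAT box occur in 12.6%, 12.4% and 33.8% of windows. A match to letters is not a site of binding.

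Among the proteases, Klk8 (ENSMUSG00000064023, chr7:43797577-43803826, plus strand) was abundant in GL261 and almost absent in GL261-GSCs. Its level was 683 and 806 CPM in GL261 replicates 1 and 2, from 46097 and 48667 UMIs. GL261-GSCs replicate 1 held 3 Klk8 UMIs in 2 cells (0.0455 CPM), and replicates 2, 3 and 4 held 0. The groups did not overlap, with means of 745 ± 87.3 CPM (SD, n = 2) and 0.0114 ± 0.0227 CPM (SD, n = 4). The ratio of summed UMIs was 62934, with a 95% counting interval of 21534 to 305180 that covers counting error only.

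Klk6 (ENSMUSG00000050063, chr7:43824499-43832030, plus strand), 26.9 kb downstream of the Klk8 start, showed the same split at a far lower level. It had 44 and 32 UMIs in the GL261 libraries, 0.652 and 0.530 CPM, and 0 UMIs in each of the 4 GL261-GSCs libraries. Against a floor of 3 UMIs over the group, it was at least 50.5-fold higher in GL261.

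The activators Plau and Plat did not show that split. Plau (ENSMUSG00000021822, chr14:20836660-20843385, plus strand), which encodes urokinase, was at 0.489 and 0.547 CPM in GL261 and at 0.591, 0.911, 2.15 and 0.604 CPM in GL261-GSCs replicates 1 to 4. Every library of GL261-GSCs exceeded those of GL261, with replicates 1 and 4 close to them and replicate 3 well above the rest. The log2 ratio of group means was 1.04, and 0.44 without GL261-GSCs replicate 3. Plat (ENSMUSG00000031538, chr8:22757727-22782844, plus strand), the tissue-type activator, was at 61.2 and 52.4 CPM in GL261 and at 47.1, 40.0, 62.0 and 49.2 CPM in GL261-GSCs. Its groups overlapped, with means of 56.8 ± 6.25 CPM (SD, n = 2) and 49.6 ± 9.18 CPM (SD, n = 4), so the difference was within the spread between libraries. UMIs from this chemistry count molecules by their 5′ end and were not divided by transcript length, so these CPM values are not levels per length.

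The receptor Plaur (ENSMUSG00000046223, chr7:24462484-24475968, plus strand) was at 317 and 322 CPM in GL261. In GL261-GSCs replicates 1 to 4 it was at 51.8, 45.3, 51.5 and 36.4 CPM. No library of one group came near the other, and Plaur remained well detected in GL261-GSCs, unlike the kallikreins. The group means were 320 ± 4.15 CPM (SD, n = 2) and 46.3 ± 7.24 CPM (SD, n = 4), a log2 ratio of -2.79.

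The serpins varied widely among the GL261-GSCs libraries. Serpine2 (ENSMUSG00000026249, chr1:79794197-79861180, minus strand), protease nexin-1, which inhibits thrombin and both plasminogen activators, was at 1.30 and 0.398 CPM in GL261. It was at 6.98, 16.6, 55.9 and 48.3 CPM in GL261-GSCs replicates 1 to 4, all above GL261, and the log2 ratio of means was 5.23. Without GL261 replicate 1 that ratio was 6.32, and without GL261 replicate 2 it was 4.61. Serpinf1 (ENSMUSG00000000753, chr11:75409769-75422701, minus strand) encodes pigment epithelium-derived factor, a secreted serpin that does not inhibit proteases. Its level was 33.1 and 27.2 CPM in GL261 and 45.2, 16.8, 1.73 and 3.57 CPM in GL261-GSCs, so GL261-GSCs replicate 1 lay above GL261 and the other libraries below it. The log2 ratio of means was -0.84, and -2.02 without GL261-GSCs replicate 1.

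**Figure D1:**
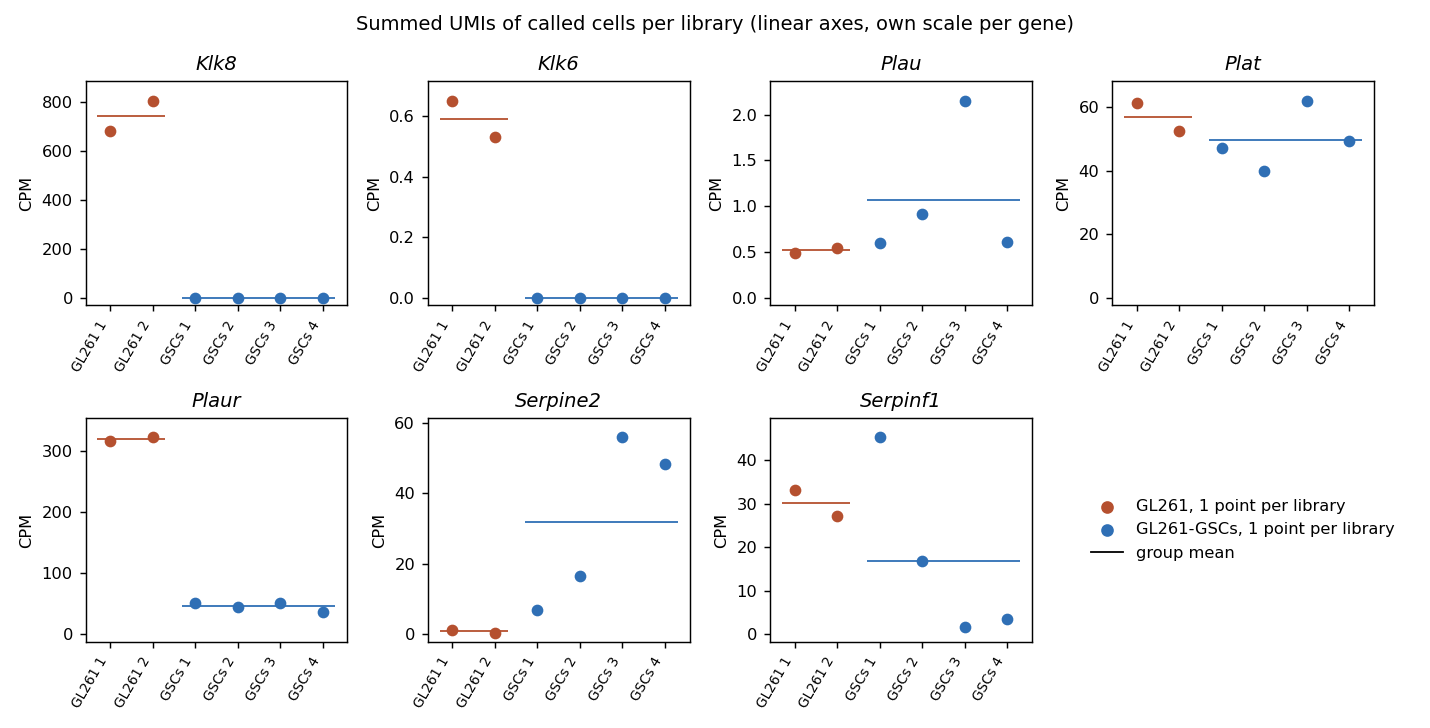
Level of each gene in CPM (linear axes, own scale for each gene) in the 2 GL261 and 4 GL261-GSCs libraries, with 1 point per library and a line at the group mean. Klk8 and Klk6 lie at or near 0 in all GL261-GSCs libraries, while Serpine2 and Serpinf1 split GL261-GSCs replicates 3 and 4 from replicates 1 and 2 in opposite directions.

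All 7 members passed the filter on low counts (edgeR filterByExpr). Klk8 and Klk6 did so through GL261 alone, the group where they are high. In 3 members (Klk8, Klk6 and Plaur) every GL261-GSCs library lay below both GL261 libraries, which held for 28.0% of the 18439 genes tested. In 2 members (Serpine2 and Plau) every GL261-GSCs library lay above, which held for 28.7% of the genes tested. The members were chosen on this contrast, and nothing is read from these counts.

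Serpine2 and Serpinf1 sat at opposite ends of the same pairs of GL261-GSCs libraries. Replicates 3 and 4 had the most Serpine2 and the least Serpinf1, and replicates 1 and 2 the reverse. The labels name no difference between these libraries. Replicates 3 and 4 had lower median depths, 10638 and 6670 UMIs per cell, against 15375 and 11890 in replicates 1 and 2. Their median mitochondrial shares were higher, at 1.26% and 1.35% against 1.04% and 1.11%. The part of these differences in the split was not tested. Plxdc2, a membrane receptor for Serpinf1 on the pathway list described below, had the same split as Serpinf1 within GL261-GSCs (13.1, 7.80, 0.0250 and 0.0549 CPM in replicates 1 to 4) and 0 UMIs in GL261. It was chosen for mention after its values were seen. Single markers of other cell types followed the same pairs of libraries. The summed level of 5 epithelial markers was 30.6, 13.7, 88.8 and 87.5 CPM in GL261-GSCs replicates 1 to 4 and 1.31 to 3.05 CPM in GL261, and Epcam alone made the split, at 28.8, 12.6, 86.9 and 86.8 CPM, with Krt5 and Krt14 at 0 UMIs in GL261-GSCs. Mog, an oligodendrocyte marker, was at 19.6, 32.4, 70.1 and 65.9 CPM, while the 5 markers of that type summed to 164 to 237 CPM there and 172 and 268 CPM in GL261. Of the neuron markers, Syt1 was at 1.15, 12.4, 51.6 and 78.2 CPM and Tubb3 at 45.8, 24.7, 4.15 and 4.45 CPM. The part of these markers in the Serpine2 and Serpinf1 values was not tested.

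Shares of cells were compared after each called cell had been thinned to 2000 UMIs, which no called cell fell short of. Klk8 was found in 64.3% of GL261 replicate 1 cells (95% exact binomial interval 62.9 to 65.6%) and in 69.4% of replicate 2 cells (68.1 to 70.7%). Free RNA, estimated from barcodes with 100 to 1000 UMIs, would alone give 5.52% and 5.71% at that depth. Without thinning the shares were 94.8% and 95.5%, and free RNA alone would give 27.0% and 26.1%. In GL261-GSCs, 0 cells of each library had a Klk8 UMI at the thinned depth. The upper ends of the 95% exact binomial intervals were 0.0507 to 0.0865%. These limits concern cells with a UMI and cover counting error only.

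Klk8 was thus spread over most GL261 cells rather than carried by a small group of them. At 2000 UMIs the variance of Klk8 counts per cell was 1.41 and 1.42 times their mean, and a Poisson count with the same mean would have given shares of 70.5% and 75.8%. The cells with the most Klk8 had 14 and 13 UMIs of it in replicates 1 and 2. Plaur was found in 38.3% and 40.1% of GL261 cells and in 9.80%, 8.84%, 9.43% and 6.56% of GL261-GSCs cells, with free RNA alone giving 0.375 to 1.69%. The Plaur shares of the groups did not overlap, and they had the order of the CPM values.

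Plat, seen in 11.8% and 9.92% of GL261 cells, was seen in 10.7%, 7.84%, 12.8% and 11.2% of GL261-GSCs cells. Those shares overlapped, as the levels did. Serpine2 was found in 0.187% and 0.140% of GL261 cells and in 1.57%, 3.63%, 10.6% and 10.6% of GL261-GSCs cells, above the 0.0772 to 1.36% that free RNA alone would give there. Serpinf1 was found in 5.72% and 4.72% of GL261 cells and in 9.17%, 3.44%, 0.302% and 0.621% of GL261-GSCs cells. Klk6 was found in 0.187% and 0.160% of GL261 cells and Plau in 0.0704 to 0.481% of the cells of any library, levels at which no share of expressing cells can be read.

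**Figure D2:**
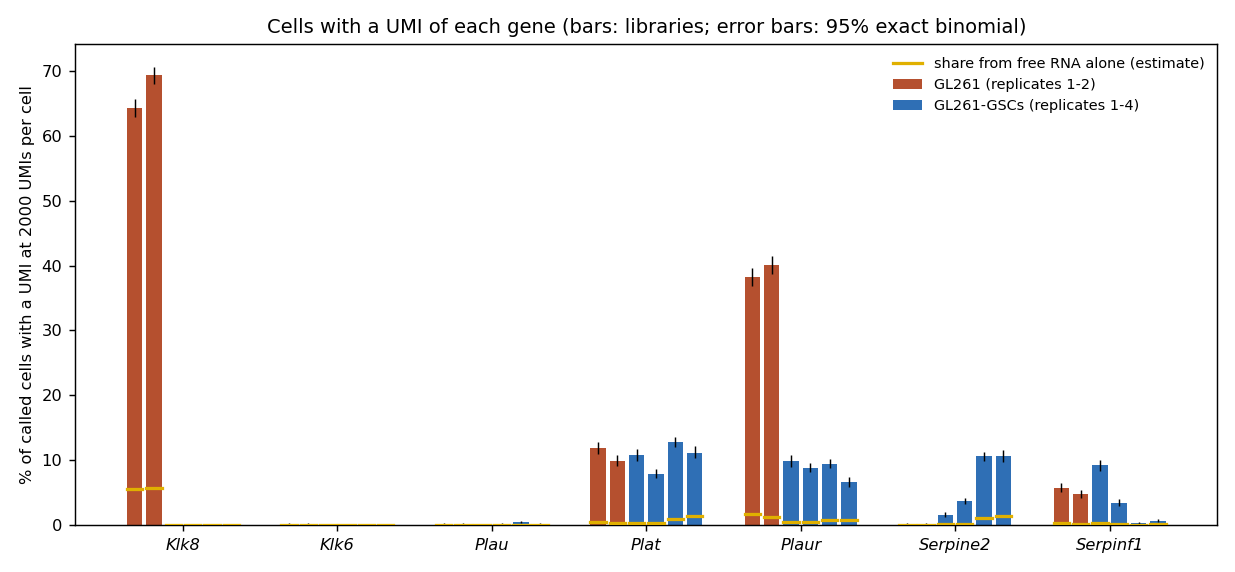
Share of called cells with at least 1 UMI of each gene after thinning to 2000 UMIs per cell (linear axis in percent). Each bar is a library in replicate order, error bars are 95% exact binomial intervals for counting error, and yellow lines mark the share that free RNA alone would give: Klk8 stands at 64.3% and 69.4% in GL261, far above the yellow lines at 5.52% and 5.71%.

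Klk8 stood out among its neighbours by UMI count. Within 200 kb of its start the annotation holds 34 genes, 16 of them protein-coding kallikreins, a window chosen after the values were seen. UMIs were found for 10 of these 16 kallikreins in GL261 and for 5 in GL261-GSCs. The kallikreins together had 96781 UMIs in GL261, of which Klk8 made up 97.9%, and 12 UMIs in GL261-GSCs. The kallikreins other than Klk8 still had 2017 UMIs in GL261 against 9 in GL261-GSCs. Klk10, 16.5 kb upstream, was the next most abundant, with 9.10 and 9.16 CPM in GL261 and 0 UMIs in GL261-GSCs, and it had 1.33% and 1.14% of the Klk8 UMIs. Klk5, Klk15 and the Klk1b genes of this window had 0 UMIs in all libraries.

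The long noncoding gene 2310002F09Rik runs antisense through this stretch, and its start lies 381 bases inside Klk8 on the other strand, so that the genes share 382 bases. It had 28.7 CPM in each GL261 library, 3670 UMIs in all, and 0 UMIs in GL261-GSCs. The sources used here do not give whether the counting used strand, so reads of Klk8 and of this antisense gene cannot be told apart in the shared bases. Klk9, Klk10, Klk11, Klk12, Klk13 and Klk14 also overlap the whole span of this antisense gene, introns included. The same limit may hold for them, but overlap of exons was not examined. The antisense gene had more UMIs in GL261 than any of these. Its UMIs were 4.20% and 3.56% of those of Klk8. Ctu1, a tRNA-modifying enzyme gene 126 kb upstream that flanks the cluster, was at 9.23 and 9.01 CPM in GL261. It was lower but detected in GL261-GSCs, at 5.0 to 5.78 CPM.

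**Figure D3:**
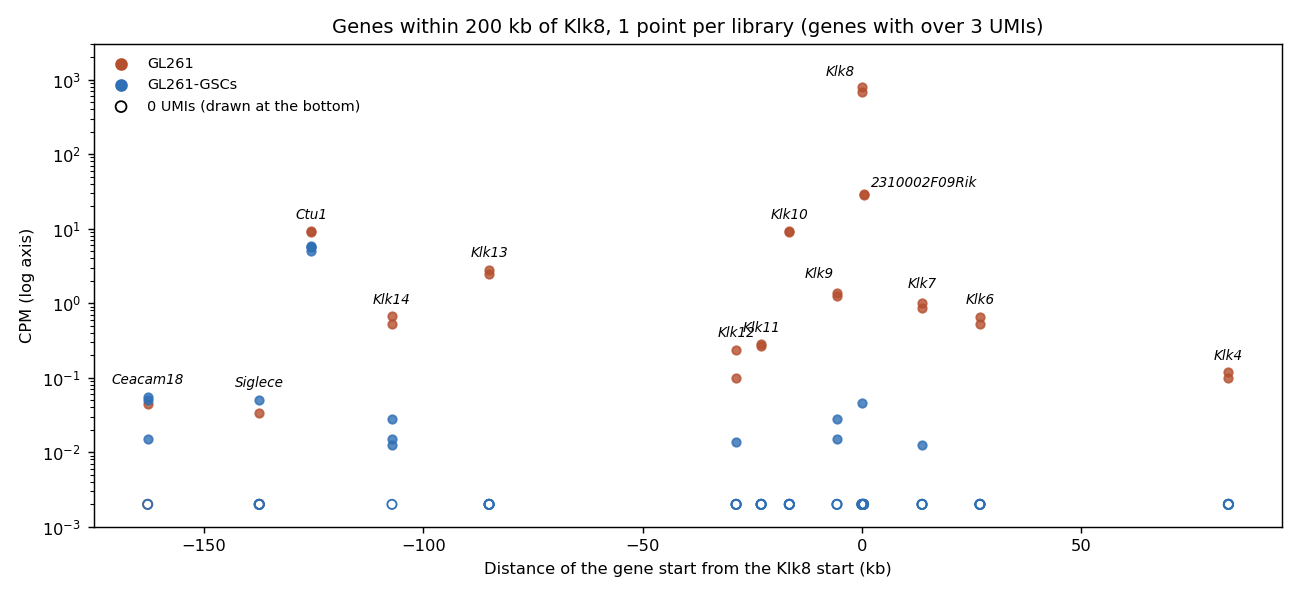
Level in CPM (log axis) of the genes within 200 kb of the Klk8 start that had over 3 UMIs, against the distance of each gene start from the Klk8 start in kb. Each point is a library and open circles at the bottom stand for 0 UMIs: the GL261 libraries carry Klk8 at 683 and 806 CPM with lower levels of its neighbours, and only Ctu1 exceeds 1 CPM in GL261-GSCs.

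Within GL261, cells with Klk8 had Plaur somewhat more often. Plaur was found in 40.4% of cells with and 34.4% of cells without a Klk8 UMI in replicate 1, and in 41.5% and 37.2% in replicate 2. The difference was 5.99 and 4.29 percentage points, and on average 3.38 points when cells were thinned to 1000 UMIs. Cells without a Klk8 UMI were also shallower before thinning, with medians of 14325 and 12826 UMIs, against 16317 and 13994 in cells with 2 or more Klk8 UMIs. The part of depth in this difference was not tested. Serpinf1 differed by 2.37 points in the same direction in replicate 1. Its difference of 0.681 points in replicate 2, and those of Plat, -0.254 and -0.865 points, lay within the counting intervals of the shares.

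Of the other kallikreins, Klk10 alone had over 100 UMIs in each class of cells (0, 1, or 2 or more Klk8 UMIs), and the rest were too few to be read. From GL261 cells with 0 to those with 2 or more Klk8 UMIs at the thinned depth, Klk10 went from 8.13 to 10.1 CPM in replicate 1 and from 8.36 to 8.71 CPM in replicate 2. In cells with 1 Klk8 UMI, Klk10 was below both of these classes, at 7.62 and 8.04 CPM, so it did not rise step by step. The antisense gene 2310002F09Rik went from 23.7 to 30.4 CPM and from 23.8 to 28.1 CPM. Between the same classes, Serpinf1 went from 24.5 to 38.2 CPM in replicate 1 and from 22.3 to 28.7 CPM in replicate 2. Plaur went from 259 to 341 CPM and from 266 to 324 CPM, and Plat from 58.5 to 59.9 CPM and from 50.7 to 46.1 CPM. Klk8 itself, with all UMIs of those cells counted, went from 390 to 946 CPM and from 447 to 1019 CPM, so cells without a Klk8 UMI at the thinned depth still held much of it. This grouping was added after the values were seen.

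Across GL261 cells at 2000 UMIs, the genes with counts most like those of Klk8 were Lgals1 (galectin-1), Anxa2, Cryab, Actb and Ckb, with Pearson r between 0.152 and 0.232 among 5692 genes compared. For Plaur they were Hbegf, a growth factor of the EGF family, Timp1, an inhibitor of metalloproteinases, Cyr61, Phlda1 and F3 (tissue factor), with r between 0.133 and 0.209. Klk8 and Plaur had r of 0.0875 and 0.0633 in replicates 1 and 2. These cells share libraries and depth, and correlations of this size in sparse counts are given as a description only.

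The contrast between cells with and without a UMI of Mki67, a marker of cycling cells, was not used to choose the members. Klk8 had log2 ratios of -0.02 and 0.00 in the 2 GL261 libraries, its level being near equal in both classes. Plat, Plaur and Serpinf1 had at least 50 UMIs in every library and were tested over 6 libraries by an exact sign-flip permutation test, 2-sided, whose smallest p is 0.0312. The Plaur log2 ratio was -0.16 ± 0.18 (SD, n = 6), lower in cycling cells in 5 of 6 libraries, with an exact p of 0.125. The Serpinf1 ratio was -0.17 ± 0.18 (SD, n = 6), lower in 5 of 6 libraries, with an exact p of 0.0938. By group, Plaur averaged 0.004 in GL261 and -0.24 in GL261-GSCs, and Serpinf1 averaged -0.05 and -0.23. The exact permutation p of these group differences was 0.267 for Plaur and 0.4 for Serpinf1 (2-sided). The Plat ratio was 0.13 ± 0.22 (SD, n = 6), higher in 4 of 6 libraries, with an exact p of 0.25. None passed, and the Benjamini-Hochberg adjusted p over the 3 members was 0.188, 0.188 and 0.25 by the exact test.

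The Plat ratios lay on opposite sides of 0 in the groups. Both GL261 libraries were negative, at -0.10 and -0.09. Replicates 1 to 4 of GL261-GSCs were positive, at 0.15, 0.06, 0.36 and 0.42. The groups differed by 0.34 on the log2 scale, with an exact permutation p of 0.133 (2-sided), the smallest that 2 against 4 libraries allow. When Mki67 was read without thinning, the mean Plat ratio over the 6 libraries was -0.14 instead of 0.13, and the mean Serpinf1 ratio -0.56 instead of -0.17. With Top2a, another marker of cycling cells, in place of Mki67 the mean ratios were 0.04 for Plat, -0.09 for Plaur and -0.31 for Serpinf1, and no member passed under either alternative.

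**Figure D4:**
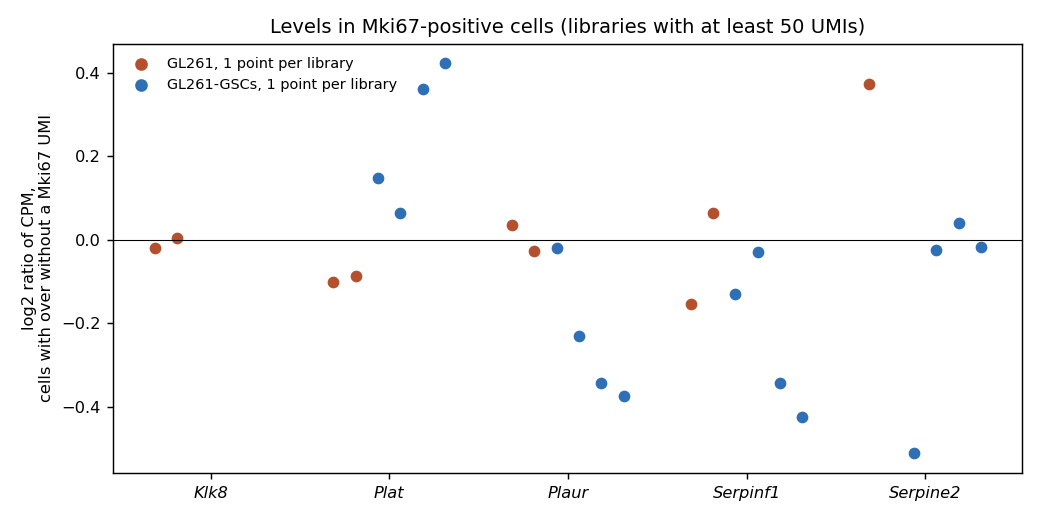
Log2 ratio of the level in cells with a Mki67 UMI over cells without one (linear axis), for genes and libraries with at least 50 UMIs. Each point is a library: Klk8 lies near 0 in GL261, and Plat lies below 0 in GL261 (-0.10 and -0.09) and above 0 in GL261-GSCs (0.06 to 0.42).

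The rest of the pathway was read from a list of 66 further genes, chosen with earlier results of these data known. Of these, 47 passed the filter and were tested in the edgeR quasi-likelihood fit over all 18439 genes. Over all genes tested, 14.1% were called lower and 15.8% higher in GL261-GSCs at an adjusted p under 0.05. Of the 47 list genes, 32 reached the filter's minimum of 0.147 CPM in at least 2 libraries of each group, 10 did so in GL261 alone and 5 in GL261-GSCs alone. Passing through 1 group alone favours genes that differ, so such genes are given by their UMIs, with no test, and no call among them is counted here. Sorl1, Serping1 and Pdgfc, which passed in GL261-GSCs alone, had 2, 9 and 0 UMIs over the GL261 libraries. Over the GL261-GSCs libraries they had 32, 54 and 64. Of the 32 that passed in both groups, 11 were lower and 5 higher, 34.4% and 15.6%, and 16 were not called. Over the 15455 genes that passed in both groups, 14.1% were lower and 13.2% higher. The median log2 fold change was -0.24 over the 32 and -0.02 over the 15455. When either GL261 library was left out, calls were fewer both among the 32 and over all genes, in fits that leave 1 GL261 library.

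The other kallikreins that passed the filter, 6 genes of the Klk8 cluster, did so through GL261 alone and had 0 to 4 UMIs each over the GL261-GSCs libraries. All of them but Klk7 overlap the whole span of the antisense gene 2310002F09Rik, introns included. In any shared bases its reads may not be told apart from theirs. Klk10 and Klk13, from 1167 and 338 UMIs in GL261 against 0, were at least 775-fold and at least 224-fold lower in GL261-GSCs. Klk11, at 0.273 ± 0.0116 CPM (SD, n = 2) in GL261, was at least 23.2-fold lower. The ratio of summed UMIs, GL261 over GL261-GSCs, was 239 for Klk7 (95% counting interval 42.1 to 9521), 112 for Klk9 (37.5 to 546) and 38.4 for Klk14 (14.4 to 144). Klk4 and Klk12 were too low to be tested, with 14 and 22 UMIs in GL261 and 0 and 1 in GL261-GSCs, and Klk1, Klk5 and Klk15 had 0 UMIs.

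The substrate of the activators was missing at the RNA level, since Plg, which encodes plasminogen, had 0 UMIs in every library. Of its binding proteins, Anxa2 and S100a10, the pair that forms the annexin A2 complex at the cell surface, fell. Anxa2 went from 3501 and 4078 CPM in GL261 to between 256 and 387 CPM in GL261-GSCs, a log2 fold change of -3.57 (SE 0.22, edgeR adjusted p = 0.000134). S100a10 changed by -2.34 (SE 0.17, edgeR adjusted p = 0.000274). Eno1 and Plgrkt were not called, at log2 fold changes of 0.41 and -0.12.

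Among the other inhibitors, Serpini1, neuroserpin, which inhibits the tissue-type activator, changed by 3.45 (SE 0.62, edgeR adjusted p = 0.00725). That call was lost, at an edgeR adjusted p of up to 0.0783, when either GL261 library was left out. Serpinb9, an inhibitor of granzyme B that passed the filter through GL261 alone, had 58 UMIs over the GL261 libraries and 16 over the GL261-GSCs libraries.

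Receptors of the system showed no common direction. F2r, the thrombin receptor, was at 9.57 ± 1.35 CPM (SD, n = 2) in GL261 and 8.81 ± 2.56 CPM (SD, n = 4) in GL261-GSCs, with an edgeR adjusted p of 0.787, and the other 3 protease-activated receptors were too low to be tested. Lrp1, the uptake receptor for protease and serpin complexes, was at 35.2 and 32.5 CPM in GL261 and spread over 6.76, 15.5, 24.9 and 50.5 CPM in GL261-GSCs, with an edgeR adjusted p of 0.622. Of 4 uptake receptors that passed in both groups, Mrc2 (log2 fold change 1.45) and Igf2r (1.51) rose and 2 were not called. The Igf2r call, at an edgeR adjusted p of 0.0488, was lost without either GL261 library or without GL261-GSCs replicate 2, 3 or 4, at up to 0.281. The Mrc2 call was lost without either GL261 library, at an edgeR adjusted p of up to 0.114. Of the Serpinf1 receptors, Pnpla2 fell by 0.54 on the log2 scale, a call lost without either GL261 library (edgeR adjusted p of up to 0.132), and Rpsa was not called. Plxdc2, described above, passed the filter through GL261-GSCs alone.

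Substrates and membrane partners of the urokinase receptor held 5 lower genes and 1 higher gene among the 9 that passed in both groups. Fn1 had the largest called change of the 32. Fn1 (fibronectin, a plasmin substrate) went from 601 and 682 CPM to 2.71, 2.75, 0.725 and 0.659 CPM, a log2 fold change of -8.52 (SE 0.66, edgeR adjusted p = 0.000312). The integrin subunit Itga3, a partner of Plaur, changed by -6.55 (SE 0.37, edgeR adjusted p = 0.000104) and L1cam, an adhesion protein, by -4.84. Itgb1 (-1.33) and Itgb3 (-1.95) also fell, and Itgav and Itga5 were not called. The Itgb1 call was lost without GL261 replicate 1, at an edgeR adjusted p of 0.0611, and the Itgb3 call without either GL261 library or without GL261-GSCs replicate 2 or 4, at up to 0.162. Met, the receptor for hepatocyte growth factor, rose by 2.70 (SE 0.18, edgeR adjusted p = 0.000169), the only gene of these 9 called higher. Ephb2, a receptor tyrosine kinase cleaved by Klk8, passed the filter through GL261-GSCs alone. It had 3 and 0 UMIs in the GL261 libraries and 64, 424, 101 and 74 in the GL261-GSCs libraries, a ratio of summed UMIs of 111 (95% counting interval 37.8 to 539).

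Of the 3 coagulation genes that passed in both groups, Procr (log2 fold change -2.29) and F3 (-2.01) fell and Tfpi was not called. Of 4 other serine proteases, Prss56 (2.64) rose and 3 were not called. Thbd, Prss35 and Prss23 passed the filter through GL261 alone. Thbd, which encodes thrombomodulin, had 160 and 98 UMIs in GL261 and 5 over the GL261-GSCs libraries. The secreted proteases Prss35 and Prss23 had 352 and 29 UMIs over the GL261 libraries and 4 and 3 over the GL261-GSCs libraries. The F3 and Prss56 calls were lost when either GL261 library was left out, at edgeR adjusted p values of up to 0.0687 and 0.108. The summed level of 5 fibroblast and pericyte markers was 252 and 287 CPM in GL261 and 11.1 to 26.8 CPM in GL261-GSCs, nearly all of it Col1a1. Pdgfrb was also lower in GL261-GSCs (4.99 and 0.116 CPM), while Dcn, Rgs5 and Lum had group means of at most 0.242 CPM that were all higher there. The part of these markers in the results was not tested.

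**Figure D5:**
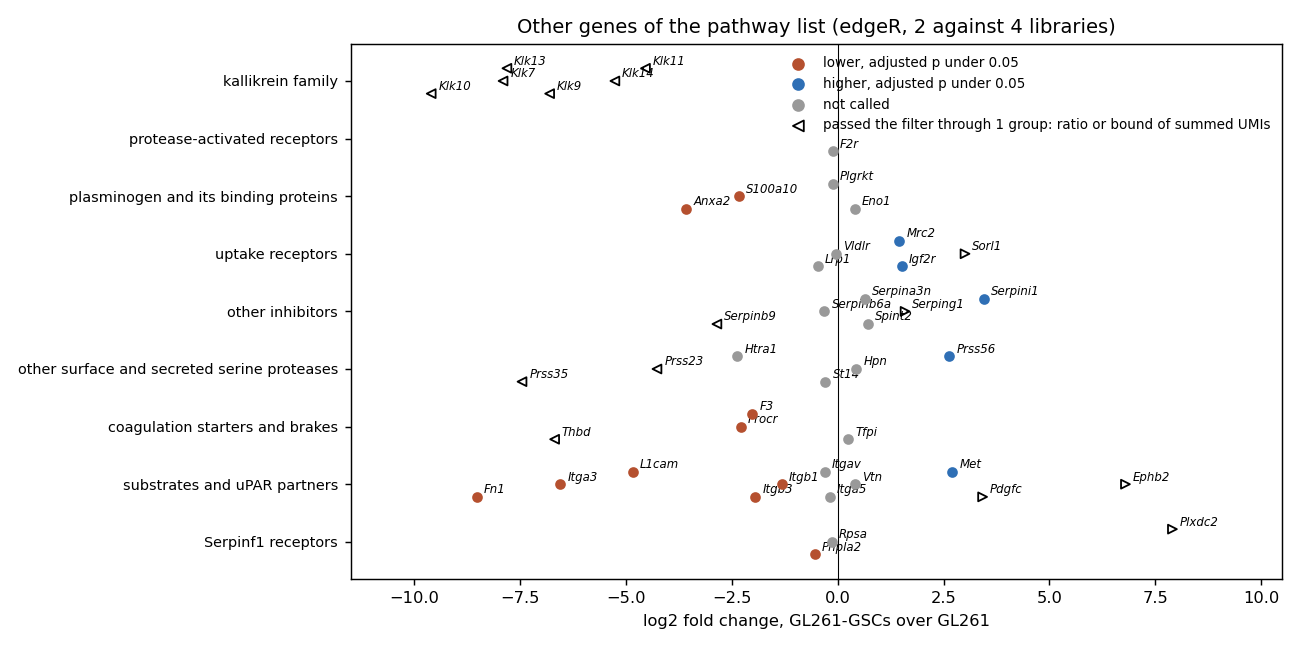
Log2 fold change of GL261-GSCs over GL261 (linear axis) for genes of the pathway list that passed the filter, by group of genes, from edgeR with 2 against 4 libraries. Orange marks genes called lower, blue higher and grey not called at an adjusted p of 0.05, and open triangles are ratios or bounds of summed UMIs, with no call, for genes that passed the filter on low counts through 1 group alone: Fn1 lies at -8.52 and Met at 2.70, and all 6 kallikreins are open triangles on the lower side.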

How the data were processed

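The authors deposited raw UMI counts per gene and barcode for 6 libraries, unfiltered, as Cell Ranger 4 output per the file headers; mm10 is named in the submitters' processing notes. For annotation release and strand setting: not given in the sources used here. Groups came from sample titles. A barcode was called a cell at 10% or more of the 99th percentile of UMIs of the 3000 largest barcodes, with at least 500 genes and under 10% mitochondrial UMIs. Doublets were not removed. Of gene symbols, 94 identifiers repeat one, and none of them is a member. Positions are from GENCODE M21 (GRCm38), which held all 73 members and pathway genes.

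Counts were summed per library and tested with edgeR 4.0.16 (R 4.3.3; glmQLFit, glmQLFTest, TMM, filterByExpr, 2-sided, Benjamini-Hochberg over 18439 genes, group only). Standard errors (SE) are the absolute log2 fold change divided by the square root of F. Genes with 0 to 3 UMIs in a group have a ratio or a bound instead. Single values used exact permutation in scipy 1.17.1. On simulated counts for 17996 genes with 200 changed, edgeR recovered 176 with 6 false calls and DESeq2 1.42.0 recovered 179 with 27. The direction of recovered changes was checked for edgeR alone. The simulated libraries were independent, with 1 dispersion for all genes and no pairs as in GL261-GSCs, so these are not error rates for these data. Depth sets the limits for genes at 0 UMIs.

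The members and lists were chosen with earlier results of these data known. Named were the members, the 12 pathway genes with the largest changes among those called, 6 named for their role, the 5 genes most correlated with a member across GL261 cells and, in groups, other genes of the list. One gene of the list is not reported here. Alternatives covered scaling, filtering, cell calling, thinning, DESeq2, a replicate block and leaving out each library.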

Additional observations from a re-analysis of the deposited data

Results flagged for a closer look

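Prss35, a secreted serine protease of the pathway list, was at 0.110 CPM in GL261-GSCs replicate 4 and had 0 UMIs in the other 3 GL261-GSCs libraries. One library far from the others in its group drew attention to it, from 4 UMIs in all, and with 0 in the other libraries that gap equals the whole range.

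The log2 ratio of Plat between cells with and without a Mki67 UMI was 0.34 higher in GL261-GSCs than in GL261, with both GL261 libraries below 0 and all 4 GL261-GSCs libraries above it. The exact permutation p of that difference was 0.133, the smallest the design allows.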

How the results depend on the processing

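The scaling, cell calling and leave-one-out alternatives kept the log2 ratios of mean CPM of Plau, Plat, Plaur, Serpine2 and Serpinf1 on their side of 0. Leaving out 1 library gave 1817 to 6193 genes called over all genes against 5514, with 1972 without GL261 replicate 1 and 1817 without replicate 2, where the lone GL261 library is assumed to vary like the others. Among the 32 pathway genes that passed the filter in both groups it gave 7 to 11 lower and 1 to 5 higher, against 11 and 5. Over all 47 tested, where genes that passed through 1 group add calls from which nothing is read, it gave 16 to 28 called and 1 to 7 higher, against 27 and 6. Scaling by library size alone put the median gene at a log2 fold change of 0.18 instead of 0.04 and the called genes at 3491 higher and 2034 lower, against 2920 and 2594, and turned the sign of F2r, Rpsa, Plgrkt and Vldlr, none of them called. With the replicate block, 6512 genes were called, with 14 of the 32 pathway genes lower and 5 higher, and the Igf2r call was lost at an edgeR adjusted p of 0.135. Replicate numbers 3 and 4 occur in GL261-GSCs alone, so in that fit the group difference rests on replicates 1 and 2 of each group. Replicates 1 and 2 deviated together across genes with a correlation of 0.0477, and the labels do not pair them. The replicate block ended no other call among the 32 and added those of Lrp1 (edgeR adjusted p = 0.0142), Htra1, Serpina3n and Vldlr. DESeq2 called 6760 genes, with 12 of the 32 lower, adding Htra1, and 5 higher.

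Share differences follow depth by construction. Thinned to 1000 UMIs, GL261-GSCs minus GL261 was -45.3 percentage points for Klk8, -0.0408 for Klk6, 0.647 for Plat and -18.5 for Plaur. Unthinned it was -95.1 for Klk8, -0.757 for Klk6, 0.265 for Plau, -8.76 for Plat, -47.5 for Plaur, 21.04 for Serpine2 and -9.79 for Serpinf1. With every barcode of at least 2000 UMIs it was -0.163 for Klk6 and 0.0343 for Plat. Leaving out 1 library gave -69.4 to -64.3 for Klk8, -0.187 to -0.160 for Klk6 and -1.20 to 0.720 for Plat, with 0.720 without GL261 replicate 1 and 0.694 without GL261-GSCs replicate 2. The Plat share difference, -0.239 points at 2000 UMIs, thus had no stable sign. With Mki67 read without thinning the Plat log2 ratio was -0.14 instead of 0.13 and that of Serpinf1 -0.56 instead of -0.17, and the Klk8 and Plat co-detection difference was 0.350 points at 1000 UMIs instead of -0.559; the cause was not tested.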
